A study of Mus musculus with 4 samples.

Results

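The genes described here carry retinol into cells, turn it into retinoic acid and pass the signal to DNA. The set held 9 mouse genes: Stra6, Crabp1, Crabp2, Rdh10, Rara, Rarb, Rarg, Rxra and Rxrb. They were measured on 4 single-colour Agilent arrays of S-180 cells, a mouse sarcoma line. Untreated cells (control 1 and control 2) were set against cells kept for 12 h with 20 µM fluoxetine (fluoxetine 1 and fluoxetine 2), an antidepressant that blocks serotonin reuptake. All cells grew in RPMI medium with 10% fetal bovine serum, which itself brings in retinol, and came as 1 purchased line. The labels name no vehicle for the untreated cells, and they describe the 2 samples of each group as biological replicates without saying whether cultures were set up separately. Probes were taken as members when their RefSeq accession mapped to 1 of the 9 symbols, which gave 15 of 56558 distinct probes, covering 8 of the 9 genes. Crabp2 was not analysed here, since no probe was matched to it. These genes were selected on the processed signals of the same 4 arrays, with fluoxetine set against control, so their differences are given as a description and no test of them is reported.

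Retinol travels in blood on a binding protein, and STRA6 is the membrane receptor that takes it from that carrier into the cell. Retinol dehydrogenases such as RDH10 oxidise it to retinal, retinal dehydrogenases make retinoic acid, and the CRABP proteins bind retinoic acid in the cytosol. Retinoic acid receptors (RAR) pair with retinoid X receptors (RXR) on paired copies of a short DNA half-site, where they hold corepressors without ligand and recruit coactivators with it.

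Signals are given as scaled signal, the deposited processed intensity after each array was brought to a common 75th percentile of 408 units. The scale has no fixed unit, and different probes are not compared in level because each binds its target differently. Changes are log2 values of fluoxetine minus control with the standard error from limma, over 2 arrays per group. Of the 15 member probes, 10 stood well above background on the control pair, the fluoxetine pair or both, and they covered 6 genes. The other 5 probes belonged to Crabp1 and Rarb. The plot of all member probes sets these values side by side.

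**Figure D1:**
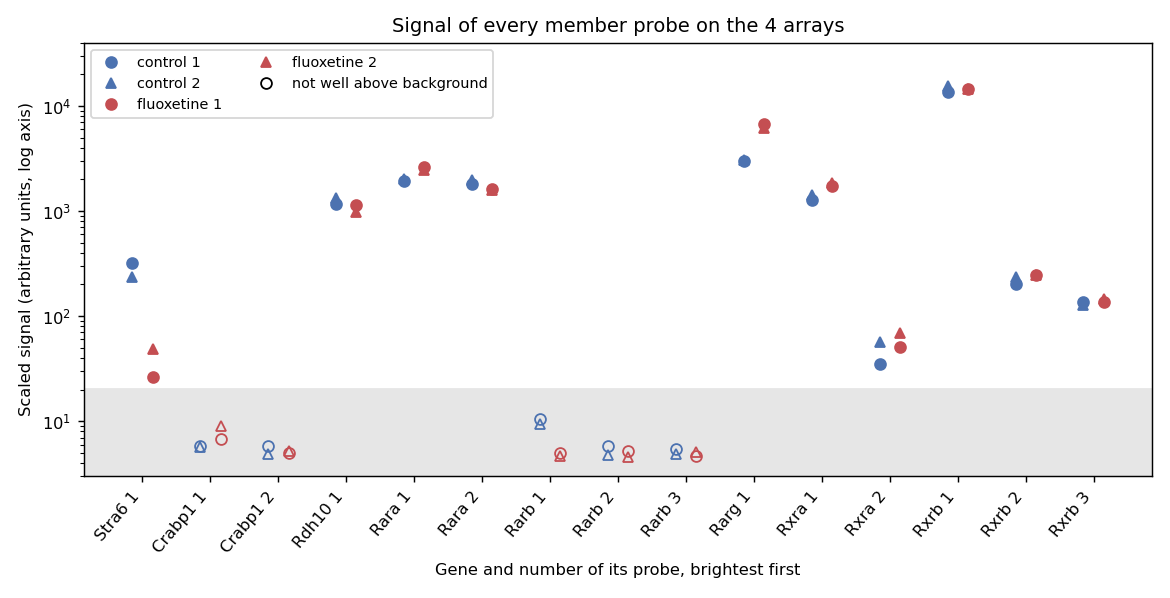
Scaled signal (arbitrary units, log axis) of all 15 member probes on the 4 arrays, with controls in blue and fluoxetine in red, circles for replicate 1, triangles for replicate 2 and open symbols for spots not well above background. The grey band marks signals under 20.3, the lowest signal well above background on fluoxetine 1. The single Stra6 probe drops from 321 and 234 to 26.5 and 49.0, the Rarg probe climbs from 2978 and 3067 to 6774 and 6172, and all Crabp1 and Rarb probes lie inside the band.

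Stra6, the retinol receptor, showed the widest difference of the set. Its scaled signal was 321 and 234 on the control arrays and 26.5 and 49.0 on the fluoxetine arrays. Both fluoxetine values lay far below both controls, and the groups did not overlap. The change was −2.92 ± 0.36, which is 7.59-fold lower, or 13.2% of the control level. Only 31 of the 13539 genes tested had a lower change. The spot was well above background on all 4 arrays, although on fluoxetine 1 its 26.5 units stood close to the lowest such signal on that array, 20.3. Leaving out 1 array at a time gave changes from −3.37 to −2.48. A background correction that adds an offset of 50 units to every signal (normexp on the median signals) gave −1.60. In bulk RNA, fewer cells expressing Stra6 and less Stra6 RNA per cell cannot be told apart.

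Stra6 rests on 1 probe, printed once per array. The RefSeq promoter table lists 4 windows for it, of which the first is shown because it belongs to the member with the widest difference. It covers the 250 bases before the start on the plus strand (chr9:58128838-58129087, GRCm38.p6, from RefSeq). Nothing in it is capitalised because no searched motif was found there or in the other 3 windows.

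Stra6: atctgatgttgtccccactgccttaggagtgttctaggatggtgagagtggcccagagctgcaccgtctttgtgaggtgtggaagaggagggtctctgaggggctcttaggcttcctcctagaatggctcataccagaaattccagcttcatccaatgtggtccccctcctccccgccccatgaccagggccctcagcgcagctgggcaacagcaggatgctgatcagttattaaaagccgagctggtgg

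The search took the half-site AGGTCA and 3 variants of it, which were AGTTCA, the form spelled GGGTCA, plus the form spelled GGTTCA. They were searched on both strands, in any pairing, as direct repeats with 1, 2 or 5 bases between them. The single half-site AGGTCA was searched too, and it can lie inside a repeat. Among all 32851 promoter windows of 250 bases in the table, 0.164% held a repeat with 1 base between, 0.174% with 2 and 0.0883% with 5, and 14.0% held AGGTCA. The members had 16 windows over 7 genes; Rdh10 and Crabp2 were not in the table. A repeat with 5 bases between occurred in 1 of the 16 windows, that of Rarb, and AGGTCA in 2, those of Rxra and Rarg.

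Retinol oxidation and cytosolic binding were covered by Rdh10 and Crabp1. Rdh10, which makes retinal from retinol, read 1155 and 1344 in control and 1147 and 973 with fluoxetine. The fluoxetine values were the lower ones, but fluoxetine 1 lay right beside control 1. The change was −0.24 ± 0.13, between −0.36 and −0.12 when 1 array was left out, and −0.02 when each array was scaled to its median in place of its 75th percentile. Crabp1 was not well above background on any array with either of its 2 probes. Its first probe, printed 10 times, read 5.83 and 5.65 in control and 6.81 and 9.10 with fluoxetine, and the second stayed between 4.84 and 5.85. No change is given for Crabp1, since all of these values were at background.

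Among the retinoic acid receptors, Rarg was higher with fluoxetine. It read 2978 and 3067 in control and 6774 and 6172 with fluoxetine. The values within each group were close together and the groups were far apart. The change was 1.10 ± 0.09, or 2.14-fold higher, and 332 of the 13539 genes had a higher one. It ranged from 1.03 to 1.16 when 1 array was left out and was 1.31 with scaling to the array median. Rarg too was represented by 1 probe. RARγ is the receptor subtype best known from skin and cartilage.

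Rara, which encodes the most widely expressed of the RAR subtypes, had 2 bright probes that went in opposite directions. The first read 1914 and 2019 in control and 2643 and 2431 with fluoxetine, a change of 0.37 ± 0.09. The second read 1807 and 1983 in control and 1623 and 1587 with fluoxetine, a change of −0.24 ± 0.09. Neither probe's groups overlapped, so the array gave no single direction for Rara. Both probes list the same transcript accession, and the mean of the pair changed by 0.06. With scaling to the array median the first probe stood at 0.58 and the second at −0.02.

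Rarb was at background with all 3 of its probes. Its first probe read 10.6 and 9.42 in control and 5.03 and 4.72 with fluoxetine, and the others lay between 4.56 and 5.83 on all arrays. The first probe's controls were the higher ones, but none of these signals was above background and no change is given. Rarb and the retinoic acid hydroxylase gene Cyp26a1 are textbook targets of the receptors, and both carry a repeat with 5 bases between in the 250 bases before their start. Their windows are shown, with the repeat in capitals, because both genes were at background on all 4 arrays. The Rarb window is chr14:16575477-16575726 on the minus strand, with the repeat 53 to 37 bases before the start. The Cyp26a1 window is chr19:37697558-37697807 on the plus strand, where the repeat lies 32 to 16 bases before the start and reads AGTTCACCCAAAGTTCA on the opposite strand. The Rarg window, chr15:102257523-102257772 on the minus strand, is set beside them as that of the receptor gene that was higher with fluoxetine, and its capitals mark the half-site AGGTCA as read on the opposite strand, 225 to 220 bases before the start. All 3 are from RefSeq, GRCm38.p6.

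Rarb: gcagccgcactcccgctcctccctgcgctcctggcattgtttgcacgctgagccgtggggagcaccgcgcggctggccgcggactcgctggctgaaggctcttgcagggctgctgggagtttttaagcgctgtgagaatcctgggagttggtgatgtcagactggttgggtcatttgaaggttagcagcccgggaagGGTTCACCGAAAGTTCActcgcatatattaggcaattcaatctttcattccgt

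Cyp26a1: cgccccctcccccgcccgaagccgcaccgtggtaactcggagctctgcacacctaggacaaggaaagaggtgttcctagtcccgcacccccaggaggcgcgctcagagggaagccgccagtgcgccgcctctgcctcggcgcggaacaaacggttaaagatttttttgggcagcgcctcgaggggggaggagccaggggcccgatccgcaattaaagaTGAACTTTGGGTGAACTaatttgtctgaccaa

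Rarg: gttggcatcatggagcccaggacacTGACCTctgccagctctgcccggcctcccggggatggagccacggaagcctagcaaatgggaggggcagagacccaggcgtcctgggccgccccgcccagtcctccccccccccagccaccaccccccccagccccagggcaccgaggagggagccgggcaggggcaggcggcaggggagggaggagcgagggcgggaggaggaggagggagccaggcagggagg

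A match is a description of these letters and shows neither binding nor response. The Cyp26a1 probe read 5.10 and 5.20 in control and 5.12 and 4.20 with fluoxetine.

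The RXR genes, whose products pair with RAR and with many other nuclear receptors, changed less than Stra6 and Rarg. The brighter Rxra probe read 1278 and 1409 in control and 1711 and 1862 with fluoxetine, and its groups did not overlap. That change was 0.41 ± 0.10, or 1.33-fold higher. It lay between 0.28 and 0.63 over the other ways of processing and between 0.34 and 0.48 with 1 array left out. The dimmer Rxra probe read 35.3 and 57.4 in control and 50.8 and 69.0 with fluoxetine, so its groups overlapped, and its change was 0.39 ± 0.31. Both Rxra probes therefore pointed the same way, and only the brighter one separated the groups.

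Rxrb is the gene of the widely expressed RXRβ. Its brightest probe read 13479 and 15450.0 in control and 14453 and 14499 with fluoxetine. Both fluoxetine values fell between the controls, and the change was 0.00 ± 0.10. It lay between −0.06 and 0.22 over the other ways of processing and between −0.09 and 0.10 with 1 array left out. The second probe read 202 and 234 in control and 246 and 247 with fluoxetine, a change of 0.18, and the third read 136 and 128 in control and 136 and 146 with fluoxetine, a change of 0.09. Both fluoxetine values were above both controls in the second probe, and also in the third, where fluoxetine 1 and control 1 were nearly equal. Of the 3 probes, then, the brightest showed no difference and the others were slightly higher with fluoxetine.

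In 5 of the 6 measurable member genes the groups did not overlap, which was so for 72.5% of all genes tested. Nothing is read from this count, since the same contrast chose the genes. Over the whole array the contrast was broad: 27.0% of all genes passed an adjusted p of 0.05 in limma, 10.2% lower and 16.8% higher with fluoxetine, as did 25.6% of all probes. No call is given for the members. The members' median change was 0.19, and that of all genes tested was 0.06.

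Around the members, 134 further genes in 8 lists cover the rest of the pathway. Of these, 133 were matched, 48 were too dim to test and 85 were tested. In limma, 23 rose, 9 fell and 53 did not pass. That is 37.6% called, where 27.0% of all genes were called. The lists were chosen with earlier results of these data known, so nothing is read from the higher share. With no filter on dim probes, 0 pathway genes were called in limma (39 had an unadjusted p under 0.05), so every rise and fall given below depends on that filter. The 85 genes had a median change of 0.16. Scaling to the array median raised the median change of all genes from 0.06 to 0.27 and moved the split of the pathway calls to 48 higher and 6 lower. Over all genes the share of calls that were higher went from 62.3% to 87.1%. Fewer pathway genes were called when any 1 array was left out. Such a fit leaves a single array in 1 group and takes its spread from the other pair. The lost calls therefore cannot tell whether the changes rest on any 1 array. The largest rise, that of Dhrs3, then lay between 1.40 and 1.52. The largest fall, that of Hoxd4, lay between −1.87 and −1.85.

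**Figure D2:**
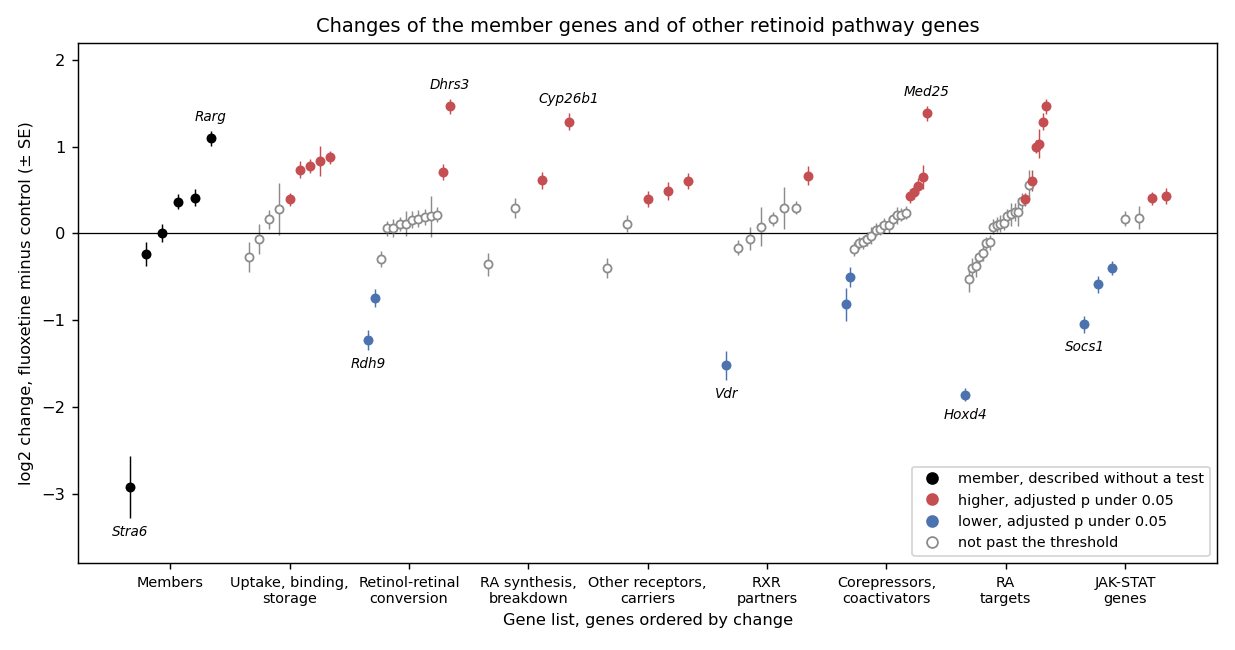
Log2 change (fluoxetine minus control, points with ± SE) of the 6 tested members and of the tested genes of the 8 pathway lists, ordered by change within each list. Black points are members, red and blue points passed an adjusted p of 0.05 and open points did not. Stra6 at −2.92 lies lowest, and Hoxd4 at −1.86 and Vdr at −1.52 are the lowest of the other genes.

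In the list for retinoid uptake, binding and storage, 5 of 9 tested genes rose and 0 fell (55.6% called, median 0.39). Lrp1, an endocytic receptor that takes up retinoid-carrying lipoprotein remnants, read 651 and 630.4 in control and 1200.1 and 1153 with fluoxetine (0.88 ± 0.08, adjusted p = 0.0119). Rbp2, a cytosolic retinol carrier of the intestine, read 530.1 and 532 in control and 875 and 942 with fluoxetine (0.77 ± 0.08, adjusted p = 0.0139). The fluoxetine arrays were the high ones for both genes. Dgat1, an acyltransferase that can esterify retinol, rose by 0.84 ± 0.18 (adjusted p = 0.0384). Rbp3, a retinoid carrier of the eye, rose by 0.74. Scarb1, a scavenger receptor, stood at −0.06 and Rbp7 at 0.16, neither past the threshold. The other retinoid receptor of the membrane, Stra6l, was too dim to test, as were Rbp4, Ttr, Lrp2, Lrat, Lpl, Ces1d, Ces1e, Cd36, Rlbp1 and Rpe65.

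Among the enzymes that interconvert retinol and retinal, Rdh10's neighbours in the pathway moved both ways: 2 of 14 tested genes rose and 2 fell (28.6% called, median 0.13). Dhrs3, which reduces retinal back to retinol, read 543 and 498 in control and 1395 and 1475 with fluoxetine. That was 1.46 ± 0.09, or 2.76-fold higher (adjusted p = 0.00953), and its other probe stood at 0.79. Rdh11, a retinal reductase, rose by 0.71 ± 0.09 (adjusted p = 0.0168). Rdh9 read 827 and 741 in control and 310.5 and 358 with fluoxetine (−1.23 ± 0.12, adjusted p = 0.0128), 2.35-fold lower. Rdh5, known from the visual cycle of the eye, fell by 0.74 on the log2 scale (± 0.10, adjusted p = 0.0199). Rdh9 has close paralogs whose transcripts could share its probe; Rdh1, Rdh7, Rdh16 and Rdh19 were themselves too dim to test. Akr1b8 at 0.16 and Adh5 at 0.06 did not pass.

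In the list for retinoic acid synthesis and breakdown, 2 of 4 tested genes rose and 0 fell (median 0.45). Cyp26b1, a hydroxylase that clears retinoic acid, read 88.3 and 84.4 in control and 226 and 197 with fluoxetine. That was 1.29 ± 0.10, or 2.44-fold higher (adjusted p = 0.0110), and 0.80 with normexp on the median signals. Por, the reductase that supplies electrons to cytochrome P450 enzymes, rose by 0.61 ± 0.10 (adjusted p = 0.0256). Cyp2s1 at 0.30 and Aox1 at −0.36 did not pass. All 3 classical retinal dehydrogenase genes, Aldh1a1, Aldh1a2 and Aldh1a3, were too dim to test, as were Aldh8a1, Cyp26a1 and Cyp26c1. Aldh1a1 read 16.9 and 19.0 in control and 10.4 and 18.3 with fluoxetine.

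**Figure D3:**
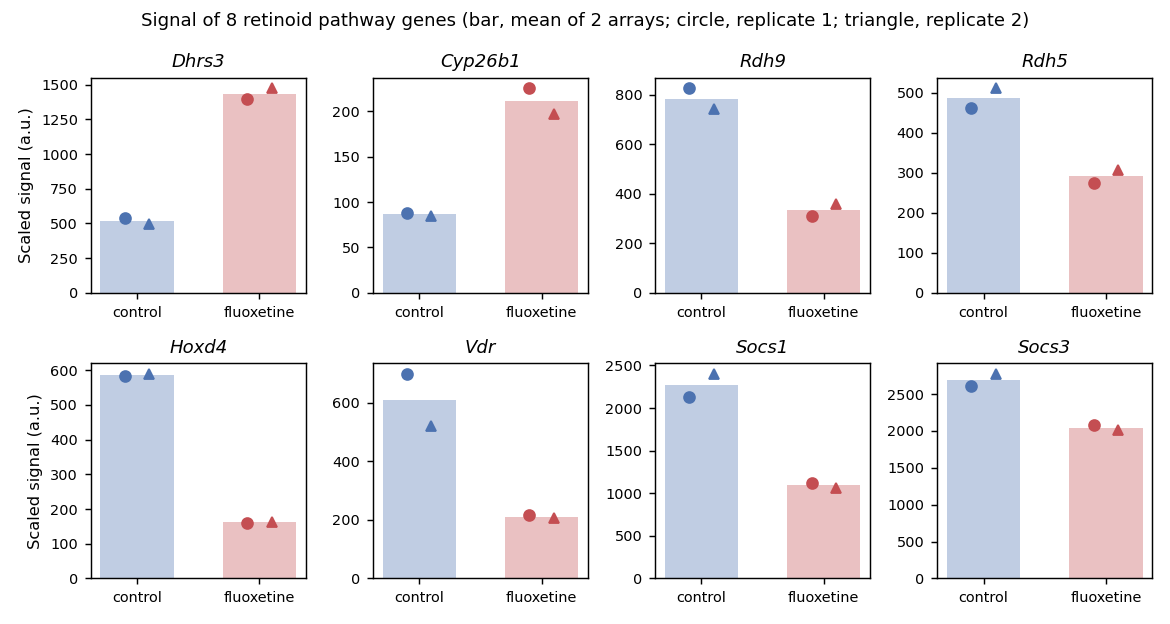
Scaled signal (arbitrary units, linear axes from 0) of 8 pathway genes in control and fluoxetine, with bars for the mean of 2 arrays and symbols for each array. Dhrs3 and Cyp26b1 are higher on both fluoxetine arrays, and Rdh9, Rdh5, Hoxd4, Vdr, Socs1 and Socs3 are lower on both.

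Beside the members, other receptors and carriers of retinoids gave 3 rises and 0 falls among 5 tested genes (60.0% called, median 0.40). Ppard, a receptor that can answer to retinoic acid delivered by Fabp5, rose by 0.60 ± 0.09 (adjusted p = 0.0229). The orphan receptors Nr2c1 (0.49, adjusted p = 0.0383) and Nr2c2 (0.40, adjusted p = 0.0447) rose too; the call on Nr2c1 was lost when its probes were averaged. The COUP-TF genes Nr2f1 at −0.40 and Nr2f2 at 0.11 did not pass. Rxrg, the remaining RXR gene, and Fabp5 were too dim to test.

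Among the receptors that pair with RXR, 1 of 8 tested genes rose and 1 fell (25.0% called, median 0.12). Vdr, the vitamin D receptor, read 699.5 and 522 in control and 215.5 and 205 with fluoxetine. Both fluoxetine values were below both controls, which were themselves apart. The change was −1.52 ± 0.17, or 2.87-fold lower (adjusted p = 0.0146). Nr1h2, which encodes the oxysterol receptor LXRβ, rose by 0.67 ± 0.11 (adjusted p = 0.0241), but its other probe stood at 0.04, and the mean of its probes, 0.35, was not called. Thra at 0.08 and Nr4a1 at 0.16 did not pass, and Thrb, Ppara, Nr1i2 and Nr1i3 were too dim to test.

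The corepressors and coactivators of these receptors were all measurable: 5 of 20 rose and 2 fell (median 0.10). Med25, a Mediator subunit that binds RAR, read 377 and 404 in control and 1053 and 989.6 with fluoxetine (1.39 ± 0.09, adjusted p = 0.00976). Its other probe went the other way, at −0.39, and the mean of both was 0.50. Tbl1xr1, of the NCoR corepressor complex, rose by 0.65 ± 0.13 (adjusted p = 0.0379), and Sin3a, a corepressor scaffold, rose by 0.55 ± 0.09 (adjusted p = 0.0262). The 2 other rises were in the coactivator Ncoa3 (0.48) and the acetyltransferase Crebbp (0.43), whose other probe stood at −0.46. The acetyltransferase Ep300 fell by 0.82 on the log2 scale (± 0.19, adjusted p = 0.0473), a call lost with quantile normalization and with scaling to the array median. Another acetyltransferase, Kat2b, fell by 0.50 (± 0.11, adjusted p = 0.0448), but its change was −0.06 with normexp on the median signals, −0.29 with quantile normalization and −0.28 with scaling to the array median, and was called in none of these. The methyltransferase gene Prmt1 at −0.03 did not pass.

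Of 43 genes known to respond to retinoic acid, 42 were matched and 24 could be tested. In this list 6 rose and 1 fell (29.2% called, median 0.16), near the 27.0% of all genes. Dhrs3 and Cyp26b1, already described, were among the rises. Plat, the tissue plasminogen activator gene, read 73.7 and 69.3 in control and 127 and 169 with fluoxetine (1.04 ± 0.17, adjusted p = 0.0243), and changed by 0.60 with normexp on the median signals. Bhlhe40 (1.00) and Tgm2 (0.61) rose too. Hoxd4, a homeobox gene with a known retinoic acid response element, read 583 and 589.9 in control and 161 and 162 with fluoxetine (−1.86 ± 0.07, adjusted p = 0.00658), 3.63-fold lower. Its values within each group were nearly equal. Rai14 at 0.24 did not pass. Besides Cyp26a1, 17 of the matched targets were too dim to test, among them Hoxb1, Cdx1 and Stra8.

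STRA6 has been described as a receptor that, on binding loaded retinol carrier, activates JAK2 and STAT5 and induces Socs3. Of 7 tested genes in a wider list of JAK-STAT genes, 2 rose and 3 fell (median 0.17). That is 71.4% called, where 27.0% of all genes were called. Whether these changes are linked to that of Stra6 was not tested. Socs1, a JAK inhibitor, read 2129.6 and 2403 in control and 1126 and 1066 with fluoxetine (−1.05 ± 0.10, adjusted p = 0.0127), 2.06-fold lower. Socs3 read 2616 and 2778 in control and 2075 and 2009.9 with fluoxetine (−0.40 ± 0.08, adjusted p = 0.0348). The fluoxetine arrays were the low ones for both genes, although the Socs3 change shrank to −0.19 and was not called with scaling to the array median, and was not called with normexp on the median signals. Cish, another inhibitor of this family, fell by 0.59 on the log2 scale (± 0.10, adjusted p = 0.0280), and its change was −0.37 with scaling to the array median. Stat5a rose by 0.43 ± 0.10 (adjusted p = 0.0433), a call lost when its probes were averaged (0.25), with quantile normalization and with the 75th percentile taken over all spots. Stat3 rose by 0.40 ± 0.08 (adjusted p = 0.0317). Jak1 at 0.18 and Jak2 at 0.17 did not pass, and Stat5b was too dim to test.

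Genes most like Stra6 over the 4 arrays were found by Euclidean distance between log2 values centred on each gene's mean. The 11991 candidates were well above background on both controls, with members, gene models, clones and accession-like symbols left out. Nearest were Lrrn2 (distance 0.573), Trpm1 (0.648) and Ankk1 (0.694). That they are lower with fluoxetine follows from this choice, so their fold values are a description only. Trpm1, a cation channel gene of melanocytes and retina, read 369 and 381 in control and 55.8 and 90.3 with fluoxetine, which is 5.28-fold lower. Lrrn2, a leucine-rich repeat neuronal gene, read 74.4 and 41.5 in control and was not well above background with fluoxetine, so it was at least 3.14-fold lower. Ankk1, a kinase gene, read 48.4 and 66.0 in control and was likewise not well above background with fluoxetine, at least 3.19-fold lower. These bounds set the control mean against a floor, which on each fluoxetine array was the larger of the gene's own signal and the dimmest signal well above background there. The distances of Lrrn2 and Ankk1 rest in part on fluoxetine signals at background, whose order means nothing.

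**Figure D4:**
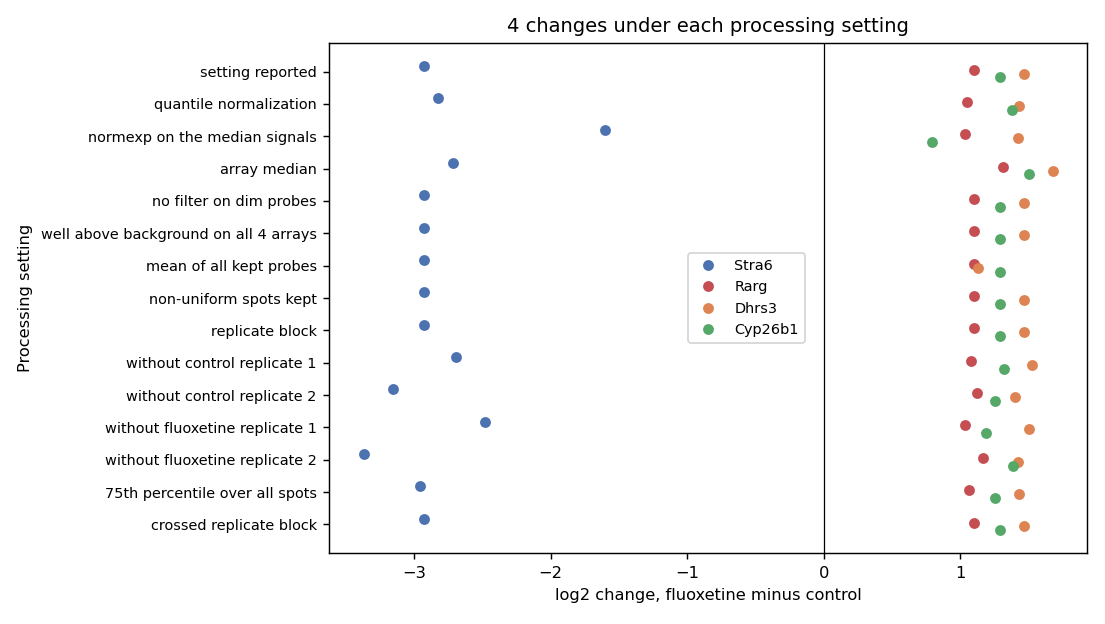
Log2 change (fluoxetine minus control) of Stra6, Rarg, Dhrs3 and Cyp26b1 under each processing setting, 1 row per setting. All points keep their side of 0. Stra6 moves most, to −1.60 with normexp on the median signals and to −3.37 and −2.48 when a fluoxetine array is left out.

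All 4 arrays were on 1 slide, with the controls next to each other and the fluoxetine arrays next to each other, so place on the slide and treatment cannot be told apart. Between 51.7% and 53.5% of non-control spots were well above background and 0 were saturated. Pearson correlations over 25833 probes, which share array and design, were 0.993 between controls, 0.995 between fluoxetine arrays and 0.976 to 0.983 between groups. Of 11 sarcoma and mesenchymal markers, 8 were well above background on both controls, while Col3a1, Thy1 and Pdgfrb were too dim; with fluoxetine 7 were, since Col1a2 was at background there (at least 2.38-fold lower). Their summed signal was 44449 to 49676 in control and 43480.4 to 44079 with fluoxetine. The brightest probes weigh most in such a sum, and the median change of the 8 tested markers was −0.23. Sparc fell by 0.62 on the log2 scale, its other probe standing at −0.16, while Prrx1 rose by 0.48 with its other probe at −0.44. The epithelial markers Krt8 and Krt18 were also well above background. The 8 hepatic and stellate markers of retinoid-storing cells were all dim, with summed signals of 66.6 to 76.1 in control and 51.6 to 71.1 with fluoxetine. The 12 leukocyte markers summed to 15540.2 to 16854 in control and 26297 to 29890 with fluoxetine, with Ptprc, Adgre1, Lyz2, Cd3d, Cd79a and Ncr1 among the dim ones, and the higher sum was carried by Cd68, a lysosomal protein gene, which read 7962 and 8947 in control and 23891 and 20517 with fluoxetine. The median change of the 5 tested leukocyte markers was −0.13. Itgam, an integrin gene of myeloid cells, fell by 1.96 on the log2 scale while its other probe stood at 0.83, Cd3e rose by 0.52 with its other probe at −0.21, and Csf1r at −0.16 and Cd14 at −0.13 did not pass. The 8 epithelial markers summed to 86305 to 91555 in control and 73668 to 75697 with fluoxetine. Krt8 (−0.20) and Krt18 (−0.33) made up most of these sums, and neither passed. Krt14, a basal keratin gene, fell by 2.15 on the log2 scale, the only 1 called of 5 tested. Epcam at 0.08 and Krt5 at 0.69 did not pass, and Cdh1, Cldn3 and Cldn4 were too dim. The 6 endothelial markers summed to 146 to 159 in control and 176 to 178 with fluoxetine. Of these, 4 were too dim to test. Neither of the 2 tested passed, and the groups overlapped in both. The part of these shifts in the changes of Stra6 and the other members was not tested.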

How the data were processed

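The authors deposited linear spot intensity, extracted with Feature Extraction 12.1.0.3 as stated per the file headers. The processed signal was used, background-corrected and unscaled between arrays, together with the deposited yes-or-no marks (well above background, saturated, non-uniform). Later steps by the authors are not given in the sources used here. Controls and 47 spots marked non-uniform were dropped and repeated spots averaged. Each array's 75th percentile over distinct probes was subtracted from log2 of the authors' processed intensity. Accessions were named through RefSeq (GRCm38.p6) without versions: 34645 of 56558 probes had 1 symbol, 21913 none. A probe was kept when the control pair, the fluoxetine pair or both were well above background; a gene took its brightest kept probe, leaving 13539 genes. Fluoxetine minus control was tested over all genes with limma 3.58.1 (R 4.3.3; lmFit, eBayes, group as the only term), Benjamini-Hochberg adjusted; "rose", "fell" and "called" mean an adjusted p under 0.05. For a single gene in groups of 2, the smallest p of an exact two-sided permutation test is 0.333, and the p-values measure only the spread between these samples, which may be technical. All 4 arrays share 1 slide and 1 scan, so no slide block could be fitted. The normexp alternative used median signals, in place of mean signals, with an offset of 50. The code was tested on simulated data. The members and gene lists were chosen with earlier results of these data known. Named were all members, in each list up to 3 largest rises, up to 3 largest falls and up to 2 bright genes that were not called, genes too dim to test, and the 3 genes most like Stra6; other called genes (Rbp3, Ncoa3, Crebbp, Bhlhe40, Tgm2) and markers (Cd68, Itgam, Csf1r, Cd14, Cd3e, Col1a2, Sparc, Prrx1, Krt14) are named after their values were seen. A few genes of the lists are not reported here and stay in the counts.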

Additional observations from a re-analysis of the deposited data

How the results depend on the processing

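Over all genes, 3653 calls became 6294 with scaling to the array median, 1859 with the replicate block and 0 with no filter on dim probes (5272 genes had an unadjusted p under 0.05). Leaving out 1 array gave 0 to 2660 gene calls: 989 without control 1, 2660 without control 2, and 0 in limma without fluoxetine 1 (4070 at an unadjusted p under 0.05) or fluoxetine 2 (4535). In those fits the remaining array is assumed to have the spread of the other pair. The 7241 probe calls became 0 with no filter (11595 unadjusted), 1281 with the replicate block and 0 to 4620 when 1 array was left out (8480 and 9311 unadjusted where 0). The 32 pathway calls became 54 with scaling to the array median, 17 with the block, 0 with no filter (39 unadjusted) and 0 to 19 when 1 array was left out. The cause was not tested.

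Equal replicate numbers are not said to pair samples. The difference between the controls and that between the fluoxetine arrays correlated at r = −0.138 over 25833 probes, and a crossed pairing as the block, chosen after seeing the data like the 75th percentile over all spots, gave 3475 probe calls and 22 pathway calls.

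Of the members, Stra6 moved to −1.60 with normexp and to −3.37 to −2.48 when 1 array was left out. Rarg moved to 1.31 with scaling to the array median and to 1.03 to 1.16 when 1 array was left out. Rxra moved to 0.28 with normexp and to 0.63 with scaling to the array median. With that scaling Rdh10 (−0.02), Rxrb (0.22) and both Rara probes (0.58 and −0.02) moved too. Of the 26 called pathway genes named by rule, 23 kept the call with quantile normalization, 24 with normexp, 23 with the array median, 23 with the mean of probes, 25 with the percentile over all spots and 26 both with all 4 arrays above background and with non-uniform spots kept. The block left 14 called, and the crossed block 18. None of the 26 changed direction under these settings. Genes that were not called and changed sign were Scarb1 (0.15 with the array median, 0.10 with the mean of probes), Prmt1 (0.0068 with normexp, 0.19 with the array median, 0.056 with the mean of probes), Adh5 (−0.046 with normexp) and Jak1 (−0.0012 with normexp). Leaving out 1 array moved Scarb1 between −0.23 and 0.10, Adh5 between −0.044 and 0.17, Prmt1 between −0.10 and 0.049, and Thra between −0.22 and 0.37.

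The 2 arrays per group limit every value, and signals near background limit Stra6 with fluoxetine, the dimmer Rxra probe, Crabp1, Rarb and Kat2b.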
